A study of Mus musculus with 6 samples.

Results

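The Pax genes encode transcription factors that carry a paired DNA-binding domain, and the mouse has 9 of them, Pax1 to Pax9. Their CpG sites were taken from a table of 890041 cytosines by position, from 1 kb upstream of each gene start to the gene end on the gene's own strand (mm10, GENCODE M21 gene records). The 9 windows held 1315 sites at 1068 CpGs, because a CpG counted as 2 sites where both of its strands were covered. Sites were found in 8 of the 9 genes, and Pax4 had 0 covered sites. DNA methylation was profiled with RRBS (reduced representation bisulfite sequencing), in which an enzyme cuts at CCGG so that CpG-rich fragments are read, in micro-dissected dentate gyrus of the hippocampus. The 6 libraries came from 6 female C57BL/6JRj mice aged 4.5 months, with 3 mice in standard housing (STD) and 3 in an enriched environment (ENR) with tunnels and toys. No transgene or mutant allele is named in the labels, and the groups shared strain, sex and age. Values are the percent of reads methylated at a site, and how many reads a value rests on is not known, apart from a minimum of 10.

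Pax proteins direct the formation of organs and cell types in the embryo, and they fall into 4 subgroups by their domains and expression. Pax1 and Pax9 act in the vertebral column and pharyngeal pouches, Pax2, Pax5 and Pax8 in kidney, midbrain-hindbrain, B cells and thyroid, Pax3 and Pax7 in neural crest, dorsal neural tube and muscle progenitors, and Pax4 and Pax6 in pancreas, with Pax6 also in eye, forebrain and the neural progenitors of the adult dentate gyrus. Developmental regulators of this kind often lie in broad CpG-rich domains that stay unmethylated even in cells that do not transcribe them, and transcription was not measured here.

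Most Pax CpG sites were unmethylated in both groups. A site was called unmethylated below a mean of 20% over the 6 libraries, methylated above 60% and partial between these limits. Of the 1315 Pax sites, 1117 (84.9%) were unmethylated, 117 (8.9%) partial and 81 (6.16%) methylated. Over the whole table the shares were 70.0%, 9.92% and 20.1%. The dissected tissue holds many cell types, so a partial level in a share of the cells and a partial level within each cell cannot be told apart. Where both strands of a Pax CpG were covered (247 CpGs), the strands differed by a median of 1.69 percentage points and at 0 CpGs by more than 25. Across the whole table the libraries averaged from 21.3% (ENR replicate 3) to 24.3% (STD replicate 1). ENR replicate 3 was lowest at partial sites, with 27.0% against 32.3% to 41.7% in the others over the table, and with 21.3% against 31.4% to 38.8% over the 117 partial Pax sites. The tissue label was not checked here, since methylation at CpGs gives no direct reading of marker genes.

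**Figure D1:**
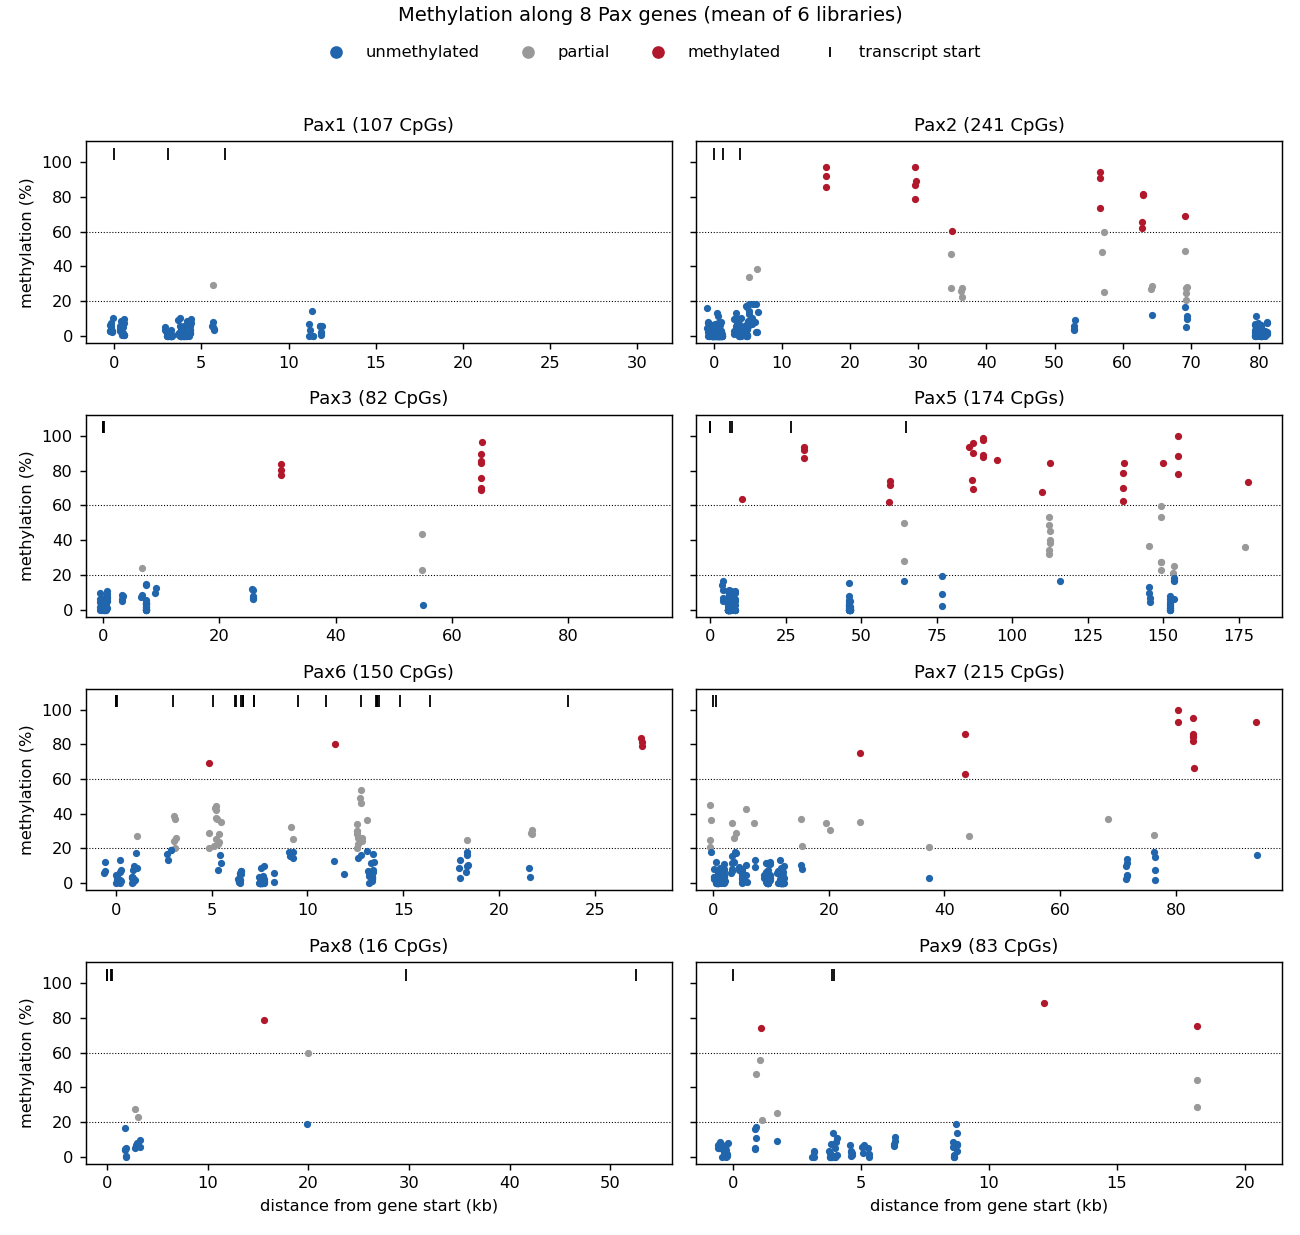
Mean methylation over the 6 libraries (y axis, percent) at each covered CpG against its distance from the gene start along the gene (x axis, kb) for 8 Pax genes. Blue, grey and red points are unmethylated, partial and methylated CpGs, dotted lines mark 20% and 60%, and black ticks at the top mark annotated transcript starts. Blue points fill the region around most starts and recur far inside Pax2, Pax5 and Pax7, where red points also lie.

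Mean levels of the members ran from 3.29% to 17.0%. Averaged over sites and libraries, Pax5 was highest at 17.0% ± 1.41 (SD, n = 6), followed by Pax8 at 15.9% ± 1.05, Pax3 at 15.1% ± 0.581, Pax6 at 13.8% ± 2.37, Pax2 at 10.2% ± 0.757, Pax7 at 10.1% ± 0.778, Pax9 at 8.44% ± 0.758 and Pax1 at 3.29% ± 0.388. Pax6 was above Pax2, Pax7 above Pax9 and Pax9 above Pax1 in 6 of 6 libraries. With means of 100 bp bins, which give sparse parts of a gene more weight, Pax2 (18.7%) was above Pax6 (17.4%) and the levels of Pax5, Pax2, Pax7 and Pax9 were 36.7%, 18.7%, 17.2% and 14.7%. The other neighbours in this order did not differ beyond their spread. Pax5 exceeded Pax8 in 5 libraries, Pax8 exceeded Pax3 in 5, Pax3 exceeded Pax6 in 3, and Pax2 exceeded Pax7 in 4. The median of the 8 genes was 12.0%, beside 9.74% for 16119 protein-coding genes with at least 3 sites. RRBS covered the members unevenly, from 3.08% of the CpGs of the Pax8 window to 22.1% of the CpGs of the Pax1 window.

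Along the genes, consecutive covered CpGs of the same class were joined into stretches of at least 3 CpGs with neighbours at most 1 kb apart. This gave 65 stretches, of which 40 were unmethylated (846 CpGs), 11 partial (51 CpGs) and 14 methylated (54 CpGs), and 117 CpGs were in no stretch. The methylated count depended on the settings, with 5 at limits of 10% and 80% and 2 at runs of at least 5 CpGs. Unmethylated stretches spread well beyond the promoters. Of the 40, 15 came within 1 kb of an annotated start of their own gene and 25 did not. The 14 methylated stretches were all more than 1 kb from a start of their own gene, and 0 were nearer. All 14 also lay over 1 kb from a start of any gene, as did 89.0% of the 24077 methylated stretches over the whole table. Counting starts of any gene, 21 of the 40 unmethylated Pax stretches (52.5%) lay over 1 kb away, beside 35.5% of the 23236 unmethylated stretches over the whole table. Among stretches of 10 or more CpGs these shares were 33.3% (7 of 21) and 12.4%.

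The same contrast was seen CpG by CpG. Within 1 kb of any start, 92.3% of 627 Pax CpGs and 91.6% of 442240 CpGs of the table were unmethylated. Over 1 kb from any start, 70.3% of 441 Pax CpGs were unmethylated, against 33.3% of 315139 CpGs of the table. Base composition went along with the class. A CpG was called island-like where the 201 bp around it were at least 50% G and C and the ratio of observed to expected CpGs was 0.6 or more. Far from starts, 95.7% of 161 island-like Pax CpGs and 62.0% of 64814 island-like CpGs of the table were unmethylated. For CpGs that were not island-like, the shares were 55.7% of 280 and 25.9% of 250325. These are descriptions of all covered CpGs, and neighbouring CpGs are not independent.

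**Figure D2:**
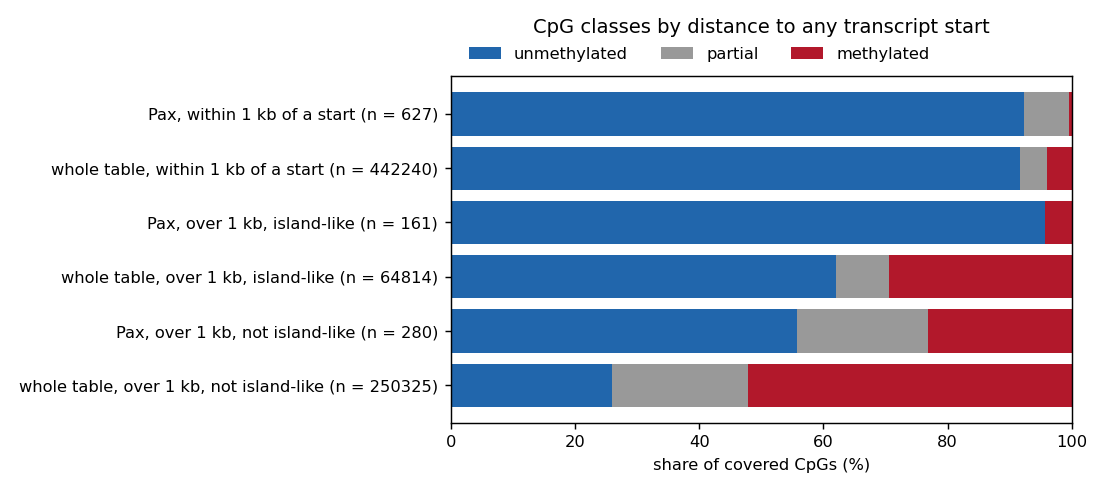
Share of covered CpGs (x axis, percent) that were unmethylated, partial or methylated, for Pax CpGs and for CpGs of the whole table, split by distance to the nearest transcript start of any gene and by island-like base composition. The paired bars are alike within 1 kb of a start (92.3% and 91.6% unmethylated) and differ farther away.

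Pax1, a regulator of the sclerotome that forms the vertebrae, was the least methylated member. Of its 107 covered CpGs, 106 were unmethylated (99.1%), 1 was partial and 0 were methylated. Its longest stretch, counted in CpGs as for the stretches below, chr2:147364832-147366342, held 61 CpGs at a mean of 2.07%, lay 4 bp from an annotated start, and included 43 coding CpGs. A second stretch of 28 CpGs crossed the gene start at 4.22%. The Pax1 stretch over 1 kb from each of its starts, chr2:147373089-147373834, held 12 CpGs at 3.87%, 4807 bp from the nearest start. The gene averaged 3.66%, 2.72% and 3.56% in the STD libraries and 3.27%, 3.61% and 2.94% in the ENR libraries, and the groups overlapped.

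Pax9, which acts in tooth, thymus and skeletal development, had 74 of 83 covered CpGs unmethylated (89.2%), 6 partial and 3 methylated. The longest of its 4 unmethylated stretches, chr12:56694875-56698123, spanned 3249 bp with 35 CpGs at 3.75%. A further 21 CpGs upstream of the gene averaged 4.23%. Its stretch far from starts, chr12:56700361-56700537, held 12 intronic CpGs at 6.45%, 4632 bp from the nearest Pax9 start. Its 3 methylated CpGs were scattered and formed 0 stretches. The gene averaged 9.39%, 7.87% and 7.91% in STD and 9.34%, 8.42% and 7.69% in ENR, with overlapping groups.

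Pax2, needed for kidney, eye and the midbrain-hindbrain boundary, carried the unmethylated stretch with most CpGs in the family. It ran over chr19:44755066-44757195 across the gene start, with 100 CpGs at a mean of 1.84% and 37 of them upstream. A second stretch of 48 CpGs followed at 4.73%, and another of 9 CpGs, at 10.3%, lay 1317 bp from the nearest start. Between these and the 3′ end of the gene the intronic CpGs were mixed, with 4 methylated stretches of 3 or 4 CpGs at 72.7% to 91.8%, 3 partial stretches, and a short unmethylated stretch of 4 CpGs at 5.51%, which lay 48984 bp from the nearest Pax2 start and 493 bp from the start of Mir6405. The longest methylated stretches held 4 CpGs each, chr19:44785588-44785636 at 88.2% and chr19:44818904-44819030 at 72.7%.

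The 3′ end of Pax2 was unmethylated again. The stretch chr19:44835500-44837235 held 40 CpGs at 2.48%, 75585 bp from the nearest Pax2 start, with single CpGs between 0.0% and 11.3%. It lay 35 bp from the start of 1700039E22Rik, an overlapping gene record, so the CpGs belong to both windows. The libraries were at 3.2%, 2.55% and 1.64% in STD and at 2.54%, 3.82% and 1.13% in ENR, and the groups overlapped. Within Pax2, levels could change over short distances. In an intron at chr19:44825170-44825270 (mm10, plus strand), shown because it is the largest change between neighbouring Pax2 CpGs within 300 bp, a CpG at 69.3% was followed 69 bp downstream by a CpG at 16.7%. The capitals mark these CpGs.
Pax2 intron, change from methylated to unmethylated: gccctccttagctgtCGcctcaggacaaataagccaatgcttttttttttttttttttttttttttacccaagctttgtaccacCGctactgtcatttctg
The first CpG read 100%, 71.1% and 73.2% in STD and 57.1%, 42.9% and 71.4% in ENR, and the second read 22.5%, 16.9% and 28.6% in STD and 12.5%, 0.0% and 19.4% in ENR. The second was lower in 6 of 6 libraries. The window has 38.6% G and C and 0 CCGG sites, and contains a long run of T between the CpGs. Over the gene, the means were 10.9%, 10.5% and 9.69% in STD and 10.1%, 10.9% and 8.94% in ENR.

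Pax5, the B-cell commitment factor, was the longest member and the one with most methylated stretches, 6 of the 14 in the family. Of its 174 covered CpGs, 73.6% were unmethylated, 18 were partial and 28 methylated, and 28 of the 28 methylated CpGs were not island-like. The stretch at its internal starts, chr4:44703690-44704648, held 66 CpGs at 2.12%. The 6 methylated Pax5 stretches were intronic, held 3 or 4 CpGs each and averaged from 69.2% to 93.4%, and 3 of them had 4 CpGs: chr4:44573592-44573828 at 73.8%, chr4:44620190-44620315 at 93.4% and chr4:44623495-44623738 at 82.6%. A further 7 Pax5 stretches over 1 kb from each of its starts were unmethylated. The 2 longest held 25 CpGs (chr4:44664227-44664691, mean 2.09%) and 11 CpGs (chr4:44558201-44558372, mean 2.50%, 87352 bp from the nearest Pax5 start and 49197 bp from the start of any gene). The other 5 held 3 to 8 CpGs, between 1049 and 88634 bp from a Pax5 start, and averaged 4.23% to 14.5%.

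The 25-CpG stretch was 18504 bp from the nearest Pax5 start, but 7 bp from the start of the overlapping record Gm12462. Its first part, chr4:44664227-44664409 (mm10, minus strand, the strand of Pax5), is printed as an example of a CpG-dense unmethylated stretch inside an intron, with the 17 covered of its 20 CpGs in capitals. This window was chosen after its values were seen.
Pax5 intron, unmethylated: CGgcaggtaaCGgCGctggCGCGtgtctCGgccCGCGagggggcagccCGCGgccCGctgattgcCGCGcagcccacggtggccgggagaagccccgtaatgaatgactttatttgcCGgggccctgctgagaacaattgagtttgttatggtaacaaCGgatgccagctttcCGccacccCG
The covered CpGs ranged from 0.0% to 15.1% and averaged 1.67%, with 1.83%, 1.76% and 0.817% in STD and 2.36%, 0.49% and 2.78% in ENR. G and C make up 65.0% of the sequence, and the ratio of observed to expected CpGs is 1.04. Over the gene, Pax5 averaged 18.6%, 17.6% and 15.8% in STD and 17.6%, 17.4% and 14.7% in ENR, and replicate 3 was lowest in each group.

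Pax8, required for the thyroid, was thinly covered, with 19 sites at 16 CpGs in a window of 520 CpGs. None of the 16 lay within 1 kb of an annotated Pax8 start, so the state of its promoters was not measured. Of the 16 CpGs, 12 were unmethylated, 3 partial and 1 methylated, and 0 were island-like. Its 2 unmethylated stretches, chr2:24473696-24473799 with 6 CpGs at 5.05% and chr2:24472592-24472759 with 3 CpGs at 6.57%, were 1299 and 2339 bp from the nearest Pax8 start, in exonic sequence outside coding segments that also lies in Gm13415. The gene averaged 17.0%, 16.6% and 15.2% in STD and 14.2%, 15.7% and 16.5% in ENR.

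Pax3, a regulator of neural crest and of muscle progenitors, was mostly unmethylated at its covered CpGs. These made up 6.96% of the 1178 CpGs in its window. Of the 82 covered CpGs, 69 were unmethylated (84.1%), 3 partial and 10 methylated. Of the 10 methylated Pax3 CpGs, 3 were island-like. The stretch at the start, chr1:78196350-78197612, held 39 CpGs at 3.77%. Of the other 3 unmethylated stretches, the longest was intronic, chr1:78189601-78190392, with 17 CpGs at 3.72%, 6447 bp from the nearest start. A stretch of 4 CpGs at 6.77% lay 3025 bp away and included 3 coding CpGs, and a stretch of 5 CpGs at 8.72% lay 25441 bp away in an intron. The longest methylated stretch of the family, chr1:78131919-78132177, was also in a Pax3 intron, with 7 CpGs at 81.5%, 64662 bp from the nearest start. A second methylated stretch, of 3 CpGs, averaged 80.5%. Its group means were 88.6% in STD and 72.4% in ENR, a difference of -16.2 points with overlapping groups, and ENR replicate 3 read 45.2%.

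An unmethylated and a methylated window from Pax3 introns are printed side by side to show how they differ in sequence (mm10, minus strand, the strand of the gene). The first is chr1:78189601-78189768, the densest part of the 17-CpG stretch, and the second is the whole 7-CpG stretch. Capitals mark covered CpGs, and both windows were chosen after their values were seen.
Pax3 intron, unmethylated: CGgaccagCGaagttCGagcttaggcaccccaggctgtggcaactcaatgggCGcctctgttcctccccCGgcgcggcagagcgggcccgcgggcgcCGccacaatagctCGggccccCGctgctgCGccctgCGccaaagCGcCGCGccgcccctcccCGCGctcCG
Pax3 intron, methylated: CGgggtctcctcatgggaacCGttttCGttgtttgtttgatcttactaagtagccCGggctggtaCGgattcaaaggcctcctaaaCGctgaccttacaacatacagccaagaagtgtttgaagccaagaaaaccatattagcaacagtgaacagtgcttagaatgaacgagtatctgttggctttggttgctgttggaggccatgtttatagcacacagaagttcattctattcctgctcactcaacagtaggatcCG
The unmethylated window packs 23 CpGs into 168 bp, with a G and C content of 75.6% and 0.985 times the expected number of CpGs. Its 16 covered CpGs ranged from 0.0% to 14.9%. The methylated window has 8 CpGs in 259 bp, a G and C content of 45.6% and 0.596 times the expected number, and its 7 covered CpGs ranged from 68.6% to 96.5%.

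The methylated Pax3 stretch printed above read 78.3%, 80.6% and 79.4% in STD and 81.0%, 85.1% and 84.4% in ENR. The ENR libraries were all above the STD libraries, by 4.03 percentage points between the group means (exact permutation p = 0.1, two-sided, the smallest that 3 against 3 allows). Over the gene, Pax3 averaged 14.1%, 15.2% and 14.7% in STD and 15.5%, 15.6% and 15.4% in ENR. The groups did not overlap here either, with a difference of 0.819 points and SDs of 0.57 in STD and 0.132 in ENR. With the median over sites the Pax3 difference was -1.87 points, with the opposite sign.

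Pax7, which marks satellite cells of muscle and acts in the dorsal neural tube, had 185 of 215 covered CpGs unmethylated (86.0%), 18 partial and 12 methylated. Of the 12 methylated Pax7 CpGs, 4 were island-like. Its stretch across the gene start, chr4:139831538-139833928, held 65 CpGs at 3.50% in 2391 bp, and just upstream lay a partial stretch of 4 CpGs at 31.8%. The first intronic part of the gene was unmethylated in long blocks. Stretches of 44 CpGs (chr4:139821322-139822423, 2.34%) and 34 CpGs (chr4:139823662-139824797, 3.45%) lay 10585 and 8211 bp from the nearest start of Pax7, which was also the nearest start of any gene. Another 17 CpGs (chr4:139827833-139829613) averaged 5.38% and 4 coding CpGs averaged 9.26%, 3395 and 2658 bp from a start.

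Farther along Pax7, 2 short intronic stretches of 6 and 4 CpGs at 7.74% and 10.8% lay 70901 and 75729 bp from a start. The methylated stretch chr4:139750388-139750634 lay 82374 bp from a start, with 6 CpGs at 83.1%. It read 84.5%, 89.0% and 85.2% in STD and 83.0%, 74.5% and 82.5% in ENR. The ENR libraries were below the STD libraries (difference -6.22 points, exact permutation p = 0.1), in the opposite direction to the Pax3 stretch. The sharpest change between neighbouring CpGs of the family was in a Pax7 exon outside the coding segments, where a CpG at 16.3% (chr4:139739578) was followed 53 bp away by a CpG at 93.1% (chr4:139739631), with the same order in 6 of 6 libraries. Its sequence is not printed because it overlaps an untranslated region. The gene averaged 10.5%, 10.6% and 10.1% in STD and 9.63%, 10.8% and 8.75% in ENR.

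Pax6, the member with a known place in neural progenitors of this tissue, had the largest share of partial CpGs. Of 150 covered CpGs, 107 (71.3%) were unmethylated, 38 (25.3%) partial and 5 (3.33%) methylated, and 5 of the 11 partial stretches of the family were in Pax6. The gene has 24 distinct annotated starts, and 4 of its 5 partial stretches lay within 1 kb of one of them. The stretch at the gene start, chr2:105668274-105669991, held 25 CpGs at 5.15%, and the longest unmethylated stretch, chr2:105674408-105677967, held 44 CpGs at 2.95% over 3560 bp. Between these, 2 partial stretches averaged 29.2% (5 CpGs) and 32.7% (9 CpGs). After the longest stretch came 2 more, at 27.3% (7 CpGs) and 49.7% (3 CpGs), and then 15 unmethylated CpGs at 5.94%.

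The partial CpGs were spread widely over the mice. The 5-CpG stretch read 51.0%, 19.6% and 25.9% in STD and 9.20%, 69.7% and 0.0% in ENR. The 9-CpG stretch read 29.8%, 44.5% and 26.6% in STD and 34.2%, 40.7% and 20.2% in ENR. ENR replicate 3 was lowest in both. Read sampling at each CpG was not known, and its part in this spread was not tested. One intronic window, chr2:105681483-105681690 (mm10, plus strand), is printed because it holds the 7-CpG and the 3-CpG partial stretches, with its 11 covered CpGs in capitals. It was chosen after its values were seen.
Pax6 intron, partial: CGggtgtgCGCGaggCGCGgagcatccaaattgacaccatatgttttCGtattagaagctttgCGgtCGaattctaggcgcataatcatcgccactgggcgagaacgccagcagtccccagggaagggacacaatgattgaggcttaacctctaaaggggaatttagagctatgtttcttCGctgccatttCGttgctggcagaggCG
These CpGs ranged from 14.7% to 53.6%. The window averaged 26.7%, 32.0% and 27.3% in STD and 38.6%, 51.2% and 17.5% in ENR, so the ENR libraries held both the highest and the lowest value. Its observed to expected CpG ratio was 1.07, so it was partly methylated although CpG-dense.

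Of the other unmethylated Pax6 stretches, 2 with 4 intronic CpGs each, at 7.89% and 13.6%, lay 1507 and 1894 bp from the nearest start. The second read 17.2%, 17.8% and 16.6% in STD and 12.9%, 10.4% and 6.8% in ENR, and the groups did not overlap (difference -7.19 points, exact permutation p = 0.1). The methylated stretch of Pax6, chr2:105696310-105696381, held 3 coding CpGs near the 3′ end at 81.3%. In the longest unmethylated stretch the STD libraries read 3.62%, 4.2% and 3.71% and the ENR libraries 2.48%, 1.71% and 1.95%. The groups did not overlap, with a difference of -1.79 points (exact permutation p = 0.1). A CpG at 12.6% (chr2:105680274) and its neighbour at 80%, 75 bp away, marked the sharpest change in Pax6, with the same order in 6 of 6 libraries. Averaged over its sites, Pax6 read 14.4%, 15.8% and 12.7% in STD and 14.2%, 16.1% and 9.68% in ENR, and ENR replicate 3 was the lowest.

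**Figure D3:**
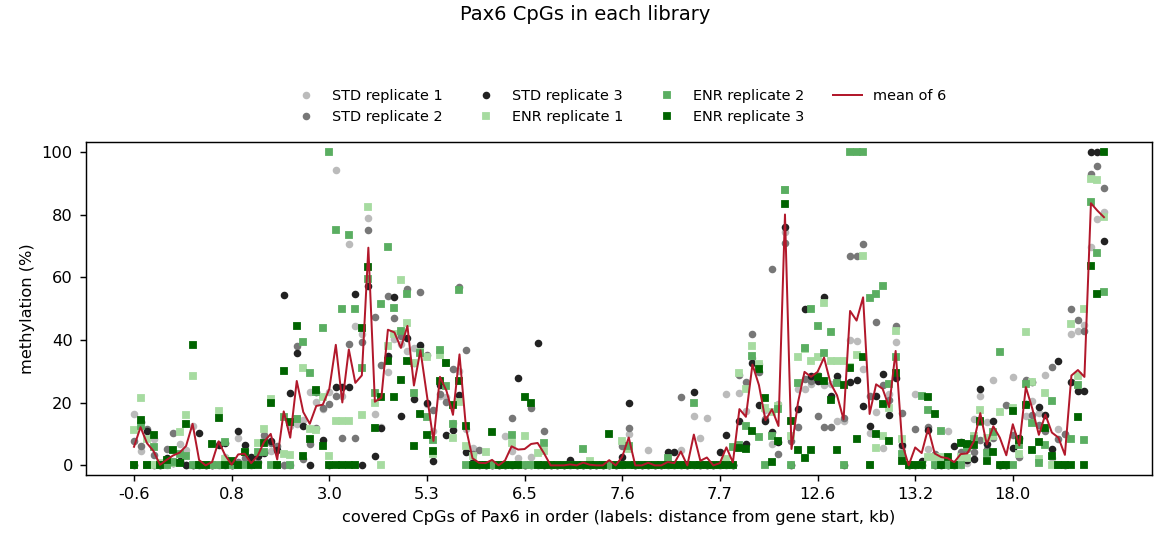
Methylation (y axis, percent) at the 150 covered Pax6 CpGs in their order along the gene (x axis, equal steps per CpG, labelled with the distance from the gene start in kb) in each of 6 libraries, circles for STD and squares for ENR, with the mean of the 6 as a red line. Raised zones with wide scatter between mice flank a zone near 0%, which includes most of the 44-CpG stretch at 2.95%.

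Pax4, a factor of pancreatic beta cells, had no covered site. Its window of 8020 bp holds 80 CpGs and 6 CCGG sites, with an observed to expected CpG ratio of 0.174, the lowest of the 9 members. Its methylation was therefore not measured here.

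The coding bases of the paired domain were covered in part. The domain was located as the window of equal length most alike among the proteins translated from the GENCODE coding sequences. It had 20 covered CpGs in Pax1, all unmethylated at a mean of 1.48%, 12 in Pax2 at 5.95%, 3 in Pax3 at 6.48%, 3 in Pax9 at 4.84% and 8 in Pax7 at 16.2%, of which 6 were unmethylated. In Pax4, Pax5, Pax6 and Pax8 0 CpGs of the window were covered. Across the covered coding CpGs of the family, 94 of 100 were unmethylated.

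Housing was compared first at the level of whole genes, to ask whether enrichment shifted the methylation of this family. Over the 1315 Pax sites the STD libraries averaged 12.0%, 11.9% and 10.9% and the ENR libraries 11.5%, 12.1% and 9.8%. The group means were 11.6% ± 0.626 (SD, n = 3) and 11.2% ± 1.22 (SD, n = 3), and the difference of -0.419 points was within the spread between mice (exact permutation p = 0.7, two-sided). Without ENR replicate 3 the difference was 0.259 points, with the opposite sign. The whole table averaged 23.7% in STD and 23.2% in ENR, also within the spread between mice (exact permutation p = 0.6).

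Of the Pax genes, 6 had a lower mean in ENR and 2 a higher mean, where 57.6% of all genes with at least 3 sites were lower. The differences ran from -0.981 points in Pax6 to 0.819 points in Pax3. They depended on how sites were summarised: with the median over sites Pax6 differed by -3.79 points, and over sites with a mean of 20% or more Pax7 differed by -4.75 points (exact permutation p = 0.1 for each, the smallest possible). Several summaries were run for each gene, and these 2 are the largest differences among them. By the median, Pax7 differed by -0.556 points and Pax3 turned to -1.87. Over sites with a mean of 20% or more Pax6 differed by -1.11 points, and without ENR replicate 3 it turned to 0.841. In limma across 22934 genes, 0 of the 8 passed a Benjamini-Hochberg adjusted p of 0.05 (adjusted p = 1 for each, and 0 of 8 at an unadjusted p under 0.05), beside 0% called and 3.86% at an unadjusted p under 0.05 over all genes. The standard errors in limma were 0.44 points for Pax1 to 1.87 points for Pax6. Pax3 was the 1 gene of 8 with groups that did not overlap, beside 8.46% of all genes, and its difference in limma was 0.819 points with a standard error of 0.939. Among the 65 stretches, groups did not overlap at 6, close to the share of 9.15% of all stretches of the table, and 3 of the 6 were methylated. Groups of 3 that do not overlap always give an exact permutation p of 0.1, so this p adds nothing to the lack of overlap. ENR was higher at the Pax3 stretch by 4.03 points, at the methylated Pax2 stretch chr19:44772474-44772513 by 9.25 points (STD 87.2%, ENR 96.4%) and at the stretch across the Pax1 start by 1.08 points. ENR was lower at the methylated Pax7 stretch and at the pair of Pax6 stretches described above.

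**Figure D4:**
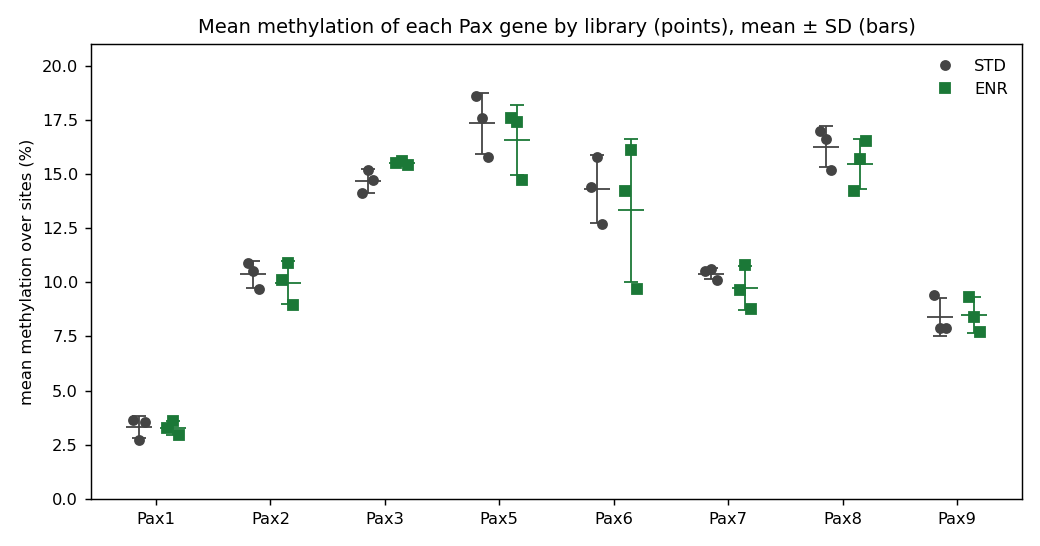
Mean methylation over the sites of each Pax gene (y axis, percent) in each library, circles for STD and squares for ENR, with horizontal ticks and bars for the group mean ± SD (n = 3). Groups overlap in 7 of the 8 genes, and ENR replicate 3 is low in Pax6 at 9.68%.

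At single sites, 0 of the 1041 Pax sites that varied between libraries were called by limma (adjusted p under 0.05 and a difference over 25 points), as were 0 of 615152 over the table (0%). The lowest adjusted p of a Pax site was 0.852. With 3 libraries per group and adjustment over 615152 sites, 0 calls do not show that the groups were alike. At an unadjusted p under 0.05 there were 20 Pax sites, beside 2.68% of all sites tested. The ENR mean was lower at 598 Pax sites, higher at 442 and equal at 275. Neighbouring sites are not independent, and the whole table also averaged lower in ENR, with a difference of -0.502 points.

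Without a test, the group means differed by more than 25 points at 15 of the 1315 Pax sites, beside 1.94% of all sites. Of the 15, 7 were lower in ENR (1.23% of all sites) and 8 higher (0.706% of all sites), and at 7 of the 15 the groups did not overlap (0.81% of all sites). Pax5 held 6 of the 15, Pax7 3, Pax2 and Pax3 2 each, Pax6 and Pax8 1 each, and Pax1 and Pax9 0. The 15 sites had means from 14.9% to 74.8%.

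**Figure D5:**
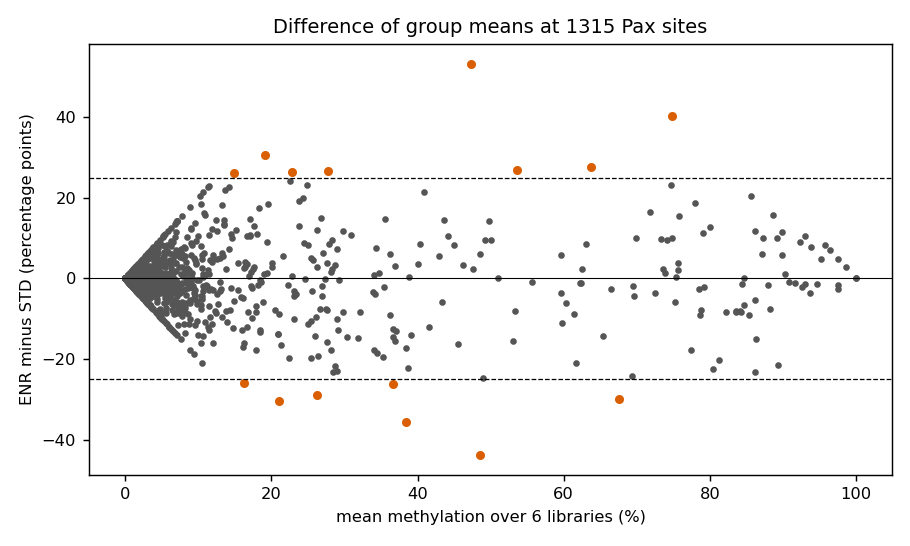
Difference of group means, ENR minus STD (y axis, percentage points), against mean methylation over the 6 libraries (x axis, percent) at the 1315 Pax sites. Dashed lines mark 25 points in each direction, and the 15 orange sites beyond them have means between 14.9% and 74.8%. Points near 0% and 100% have little room to differ.

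Higher methylation in ENR was most marked at an intronic Pax2 site, chr19:44790874, which read 41.7%, 15.4% and 4.76% in STD and 75.0%, 84.2% and 62.5% in ENR. The difference was 53.3 points (limma adjusted p = 0.852). Only 1 of the 2 other sites within 100 bp had the same direction. In Pax5, the intronic site chr4:44623738 read 58.1%, 59.3% and 46.7% in STD and 100%, 84.6% and 100% in ENR, a difference of 40.2 points (limma adjusted p = 0.852), at the edge of a methylated stretch. In Pax3, chr1:78189768, the 5′-most covered CpG of the unmethylated window printed above, read 0.0%, 0.0% and 5.56% in STD and 22.7%, 16.7% and 44.4% in ENR. Of the 8 other sites within 100 bp, 0 had the same direction, and they differed by a mean of -3.07 points. Without ENR replicate 3 the difference at this site was 17.8 points, against 26.1 with it.

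Among sites lower in ENR, the Pax5 site chr4:44598053 read 56.7%, 61.8% and 50% in STD and 24.1%, 10.7% and 27.2% in ENR, a difference of -35.5 points (limma adjusted p = 0.852). It lies in an intronic partial stretch of 6 CpGs. The intronic Pax7 site chr4:139796213 read 25%, 21.7% and 62.1% in STD and 0.0%, 17.6% and 0.0% in ENR. Its difference of -30.4 points was -17.5 points without STD replicate 3. The Pax7 site chr4:139739578, the less methylated CpG of the sharp change described above, read 23.5%, 33.3% and 30.8% in STD and 0.0%, 10% and 0.0% in ENR, and the 1 other site within 100 bp differed by 10.6 points in the opposite direction. Both had a limma adjusted p of 0.852, and groups that do not overlap were a condition for naming these 6 sites.

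Pax proteins work in a regulatory network with Eya proteins, which are transcriptional coactivators, and Dach proteins, which are cofactors. The 6 genes Eya1 to Eya4, Dach1 and Dach2 had covered sites, and their median level was 23.5%. The highest were Dach2, on the X chromosome, at 50.2% and Eya2 at 28.9%, and the lowest were Eya1 at 10.7% and Dach1 at 17.8%. Of the 6, 0 were called by limma across all genes (adjusted p = 1 for each), beside 0% of all genes, 4 had a lower mean in ENR and 2 a higher mean, and groups overlapped at each. Dach2 read 55.9%, 54.7% and 45.6% in STD and 51.9%, 52.3% and 40.9% in ENR, with replicate 3 lowest in each group.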

How the data were processed

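The authors trimmed reads, aligned them to mm10 and kept cytosines with at least 10 reads, and deposited a table of percent methylation per cytosine and library. The submitters' processing notes name Trim Galore 0.4.0, cutadapt 1.8.1, Bismark 0.16.1 and methylKit 1.5.2. The table holds no read numbers, so the depth of each value is unknown, no interval is given, and the study's test on reads could not be run. Groups and replicate numbers came from the labels, which give 3 individual mice per group.

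Sites were assigned with GENCODE M21 gene records. limma 3.58.1 (R 4.3.3; lmFit, eBayes with a variance trend) was run on percentages at all sites that varied and on means of all genes with at least 3 sites, with Benjamini-Hochberg adjustment over the whole table. The procedure was tested on simulated data. For a single value per library the test was an exact permutation test (two-sided, 20 regroupings), whose smallest p is 0.1. Sites are named where group means differed by over 25 points without overlap of the groups, taking in each direction the 3 with the lowest limma p and no more than 1 per kb. Named stretches were the longest of each class per gene and the unmethylated ones over 1 kb from each start; other stretches are named as examples after their values were seen. Windows that overlap untranslated regions were not printed. The members, lists and tests were chosen with earlier results of these data known. Part of the list of network genes is not reported here. Alternatives are in the closing section.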

Additional observations from a re-analysis of the deposited data

How the results depend on the processing

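Single-site and whole-gene calls at Pax genes were 0 under each of 12 and 10 alternatives, with 17 to 34 Pax sites and 0 Pax genes at an unadjusted p under 0.05. These alternatives rest on the same small groups, so their 0 calls do not show that the groups were alike. The small mean differences changed sign under some alternatives, except that of Pax7, which kept it under each one run, and the cause was not tested. With quantile normalization the difference over the Pax sites was 0.167 points, and those of Pax1, Pax2 and Pax8 were 0.392, 0.102 and 0.402. With means of 100 bp bins Pax1 was at 0.012 and Pax8 at 1.14, with strands averaged Pax8 was at 0.271, and with the median over sites Pax3 was at -1.87 and Pax9 at -0.785. Without a change of sign, the median over sites put the Pax sites together at -0.799, Pax6 at -3.79 and Pax8 at -2.69, bins put Pax7 at -1.56 and Pax9 at 0.924, and sites with a mean of 20% or more put the Pax sites together at -1.48, Pax1 at -0.484, Pax3 at 2.69, Pax5 at -2.75, Pax7 at -4.75, Pax8 at -1.68 and Pax9 at 2.84. At the 6 named sites, leaving out 1 library took 3 below 25 points in size: Pax7 chr4:139796213 (-17.5 without STD replicate 3), Pax7 chr4:139739578 (-23.8 without STD replicate 2, -24.2 without ENR replicate 1 or 3) and Pax3 chr1:78189768 (17.8 without ENR replicate 3). Leaving out each replicate in turn gave ranges of -0.916 to 0.259 points over the Pax sites, -0.336 to 0.132 for Pax1, -0.813 to 0.163 for Pax2, -1.47 to 0.232 for Pax5, -2.37 to 0.841 for Pax6 and -0.334 to 0.593 for Pax9. Leaving out ENR replicate 3 gave the reversed sign for the Pax sites, Pax2, Pax5 and Pax6. For Pax1 the sign also turned without STD replicate 1, STD replicate 3 or ENR replicate 3, and for Pax9 without STD replicate 2, STD replicate 3 or ENR replicate 1. Pax3, whose sign turned with the median over sites alone, and Pax7 ranged over 0.531 to 1.1 and -1.23 to -0.199 in these leave-outs, and Pax8 over -1.36 to -0.187.

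The number of methylated stretches, 14, was 5 with limits of 10% and 80%, 2 with runs of at least 5 CpGs, and 12 to 14 with each replicate left out. Unmethylated stretches numbered 27 to 54, against 40. Of the 7 neighbouring ranks in the order of levels, 6 were kept with strands averaged, where Pax7 was above Pax2, and 6 with bins, where Pax2 was above Pax6. Bins raised the levels of Pax5, Pax2, Pax7 and Pax9 by over 1.5 times.

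With the replicate number as a block, 0 Pax sites and 0 Pax genes were called. The difference over the Pax sites is -0.419 points with or without the block, since a balanced block cannot change a difference of group means. Replicate numbers are not known to pair mice. Deviations of same-numbered libraries correlated at 0.0602, 0.0348 and 0.135, and STD replicate 2 correlated best with ENR replicate 1 (0.0448). Read numbers were not used, so sites weigh alike whatever their depth, and small differences cannot be told from read sampling.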
